A study of Homo sapiens with 7 samples.

Results

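The comparison set cardiac progenitors that lack all TET enzymes (TKO CP, genotype TET1/2/3 KO) against wild-type cardiac progenitors (WT CP), both made from the established human embryonic stem cell line HUES8, at day 8 of a cardiac differentiation. Both groups had received 6 µM CHIR99021, an activator of Wnt signalling, and then 5 µM IWP2, a Wnt inhibitor, and both were sampled before the step in lactate medium without glucose that enriches cardiomyocytes. The assay was enhanced reduced representation bisulfite sequencing, which samples CpG-rich DNA and reads methylated cytosine as C and unmethylated cytosine as T. Each group was 1 library of 7 in the series, so every difference below compares libraries and cannot be set against replicate spread. The other libraries were TKO stem cells (TKO SC, day 0), TKO cardiac mesoderm (TKO CME, day 3), WT SC (day 0), WT CME (day 3) and WT cardiomyocytes (WT CM, day 14 in the series text and day 15 in its description, with a source label that names the CME stage), and they are used as values beside the progenitors. The labels do not say how many clones the TKO line represents. The files hold methylation only, so neither the knockout nor the share of cardiac cells in each culture was checked.

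CpGs were kept where both progenitor libraries had 10 or more reads over both strands, which left 1897045 CpGs of 2586954 nuclear CpGs seen in any of the 7 libraries (73.3%). They were read singly and in bins of 1 kb with 5 or more such CpGs, which gave 91606 bins of 123508 with such CpGs in any library. Total coverage was 149053464 reads over listed cytosines in TKO CP and 158372334 in WT CP, and the median CpG had 63 reads in TKO CP and 65 in WT CP. The level is the percent of reads that are methylated. A bin or CpG was called higher or lower in TKO CP at an adjusted p below 0.01 (Fisher's exact test, two-sided, Benjamini-Hochberg over all bins or all CpGs) with a difference of 25 percentage points or more. Intervals are 95% Wilson intervals and cover counting error only.

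TET enzymes oxidise 5-methylcytosine, and the oxidised base can be lost by dilution at replication or replaced through base excision repair. Regulatory DNA of many tissue-specific genes loses methylation as a lineage forms, while most CpG-island promoters are unmethylated in every tissue. In the heart, transcription factors of the TBX, HAND, GATA, IRX and NR2F families pattern the progenitors, and the contractile genes for actins, troponins, tropomyosin and Z-disc proteins are turned on as the cells become muscle.

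Progenitors without TET enzymes carried more methylation than WT progenitors, and differences of 25 points or more were nearly all in that direction. The mean level over CpGs was 47.4% in TKO CP and 39.9% in WT CP, a difference of 7.50 points. The median CpG stood at 55.2% in TKO CP and 5.56% in WT CP. The gap is wide because the TKO CP median falls between a low and a high mass of CpGs. The WT CP median falls within the low mass. CpGs under 20% made up 45.8% in TKO CP and 53.4% in WT CP, and CpGs at 80% or more made up 44.7% in TKO CP and 35.8% in WT CP. Of all CpGs, 188086 (9.91%) were called higher and 2261 (0.119%) lower in TKO CP. Of the bins, 10864 (11.9%) were called higher and 42 (0.0458%) lower.

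The bins called higher had a median level of 87.1% in TKO CP and 20.8% in WT CP. Bins that were partly methylated in WT CP differed most often. Of the 2883 bins between 20% and 40% in WT CP, 2213 (76.8%) were called higher, and of the 3251 between 40% and 60%, 2397 (73.7%). Bins under 10% in WT CP numbered 29559, of which 12.7% were called higher. In 1565 of these the level in TKO CP was 80% or more. The higher bins formed 9080 runs of adjacent called bins, of which 7654 were single bins and 263 held 3 or more. A run also ends where the next bin was not tested, and 484 of the single bins had tested bins on both sides.

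**Figure D1:**
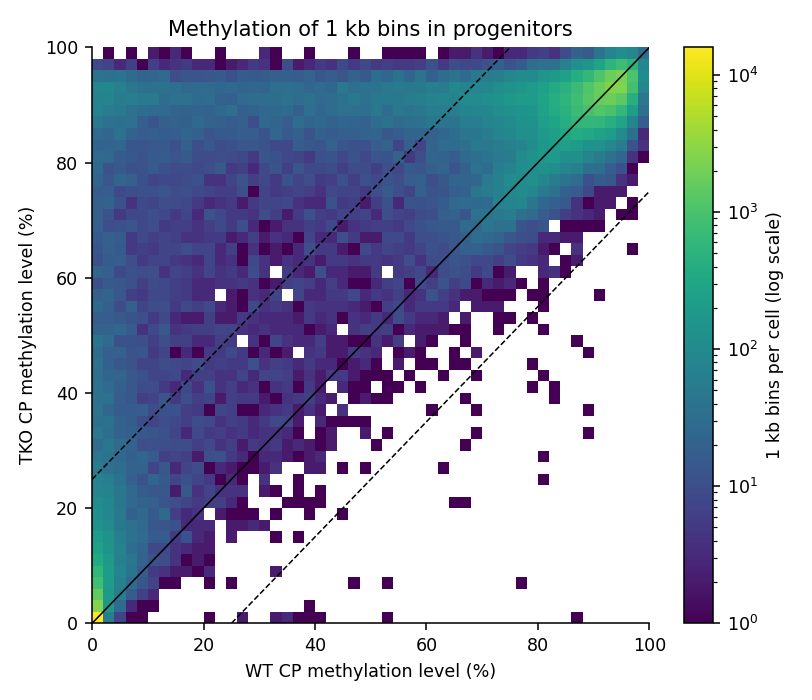
Methylation level (percent) of 91606 bins of 1 kb in TKO CP (vertical axis) and WT CP (horizontal axis); colour gives the number of bins per square on a log scale, the solid line marks equal levels and the dashed lines a difference of 25 points. The 10864 bins called higher in TKO CP fill the upper left, most of all along the top edge, and the 42 called lower are scattered at the lower right.

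Promoters could be read for 9263 genes whose RefSeq promoter sequences (300 bases, from 250 before to 50 after the start) were placed on the files' build, hg19, by the pattern of their CpGs. A promoter region here is that window with 500 bases on each side. Of the 9136 placed promoters that overlap a tested bin, 844 (9.24%) overlapped a bin higher in TKO CP and 7 (0.0766%) a bin lower. The TKO minus WT difference was smallest near the start. It was 3.11 points in the first 100 bases after the start, 2.58 points in the next 100, 9.80 points between -1000 and -900 bases and 15.7 points between 2400 and 2500 bases after it. Bins that contain a start were higher in 5.08% of 8385 cases, and bins 1 to 2 kb from the nearest placed start in 18.9% of 1866. Among bins under 20% in WT CP the shares were 4.20% with a start inside, 8.97% within 1 kb and 31.0% at 2 to 5 kb. Among bins between 20% and 80% in WT CP they did not climb with distance, at 40.3% with a start inside, 41.7% within 1 kb and 39.2% at 2 to 5 kb.

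**Figure D2:**
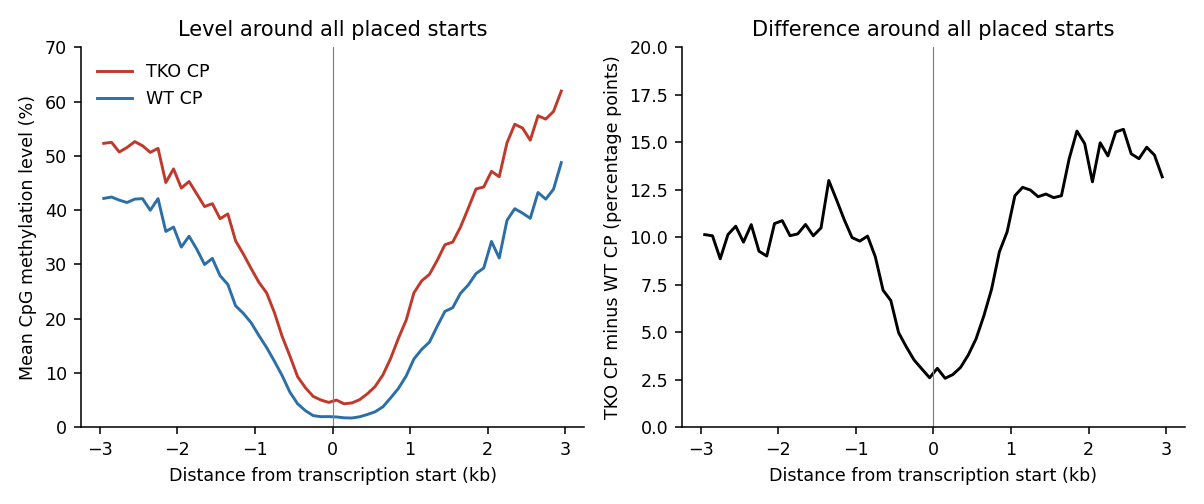
Mean CpG methylation level (percent, left) in TKO CP and WT CP and their difference (percentage points, right) in steps of 100 bases within 3 kb of the placed transcription starts. Both libraries are lowest between 100 and 300 bases after the start, where the difference is 2.58 points at its smallest, against 15.7 points at its highest, between 2400 and 2500 bases after it.

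Contractile genes held the largest promoter differences among the cardiac genes examined. Of 243 listed genes, 98 were placed, and the 4 cardiac lists (regulators, sarcomere and cytoskeleton, ion channels and calcium handling, and secreted signals) held 42 of them. A bin higher in TKO CP overlapped the promoter of 7 of these 42 (16.7%, against 9.24% of all placed promoters): TNNI3, ACTA1, LDB3, TPM1, TBX1, IRX4 and KCND3. None overlapped a bin that was lower. A called bin can reach beyond the promoter region. Of the CpGs within the region, 0 of 72 were called higher at KCND3 and 2 of 84 at TPM1. The counts were 3 of 95 at IRX4 and 4 of 33 at TBX1. They were 11 of 14 at TNNI3, 11 of 16 at LDB3 and 28 of 33 at ACTA1. At TBX1 the 33 CpGs lie 1 to 444 bases after the start, and the CpGs of its called bin lie outside the region. The whole region was higher in TKO CP by 25 points or more at 3 of the 42, against 433 of 9136 placed promoters. The median promoter of the 42 differed by 1.02 points, against 0.295 points over all placed promoters. Of the 42, 34 stayed under 10% in TKO CP, against 40 in WT CP. Of the 9136 placed promoters that overlap a tested bin, 7898 stayed under 10% in TKO CP, against 8557 in WT CP. No promoter was placed for NKX2-5, GATA4, ISL1, MYH6, MYH7, TNNT2 or NPPA, so these genes were not analysed here.

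**Figure D3:**
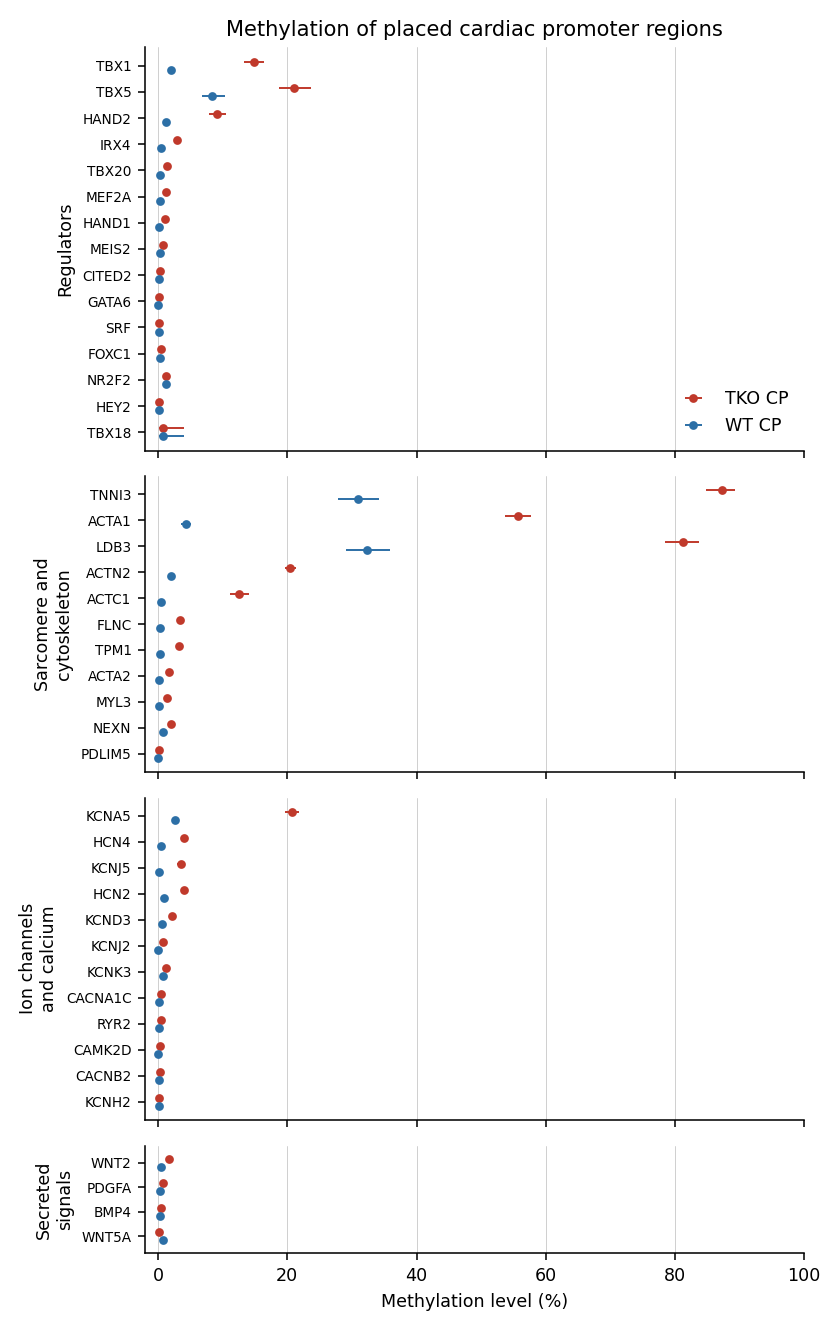
Methylation level (percent) of the 42 placed cardiac promoter regions in TKO CP and WT CP, grouped by list and sorted by difference; bars are 95% Wilson intervals. TNNI3, ACTA1 and LDB3 stand at 55.7% or more in TKO CP, and most other promoters lie near 0 in both libraries.

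TNNI3 encodes cardiac troponin I, the inhibitory subunit of the troponin complex. Its promoter region on chromosome 19 stood at 87.2% in TKO CP (84.8 to 89.3) and 30.9% in WT CP (27.9 to 34.2), over 14 CpGs with 845 reads in TKO CP and 821 in WT CP. The region was methylated in the other early libraries, at 88.7% in TKO SC, 82.3% in TKO CME, 84.5% in WT SC and 82.7% in WT CME, and stood at 37.6% in WT CM. WT CP and WT CM were thus the low libraries. The bin that holds the start was at 87.9% in TKO CP and 17.4% in WT CP (adjusted p = 2.66e-101, Fisher's exact test). This bin is centred -400 bases from the start, but its 9 CpGs all lie from -129 bases onward.

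LDB3 encodes a Z-disc protein that binds actinin. Its promoter region on chromosome 10 was at 81.3% in TKO CP (78.5 to 83.8) and 32.4% in WT CP (29.1 to 35.8) over 16 CpGs (adjusted p = 3.60e-88 for the bin, Fisher's exact test). It stood at 81.2% in TKO SC, 77.6% in TKO CME, 68.4% in WT SC, 66.8% in WT CME and 24.2% in WT CM, so that here too only WT CP and WT CM were under 40% among the 7 libraries.

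ACTA1 encodes skeletal alpha-actin, which is also made in heart muscle. Its promoter region on chromosome 1 was at 55.7% in TKO CP (53.7 to 57.7) and 4.29% in WT CP (3.62 to 5.08) over 33 CpGs. Unlike TNNI3 and LDB3 it was low in every WT library, at 5.17% in WT SC, 5.78% in WT CME and 4.45% in WT CM, and partly methylated in TKO SC (31.7%) and TKO CME (34.4%). The difference ran on past the start: the bins centred 341, 1341, 2341 and 3341 bases after the start were at 75.7% to 94.0% in TKO CP and 0.585% to 25.7% in WT CP.

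The promoters of TNNI3, LDB3, ACTA1 and ACTN2 are shown because single CpGs in them carry these differences, and that of HAND1 because none did. They are RefSeq sequences (GRCh38.p14), 5′ to 3′ on the gene's strand, with the hg19 window to which the files' CpGs matched. Capitals mark CpGs called higher in TKO CP.
TNNI3 (hg19 chr19:55669051-55669350, minus strand): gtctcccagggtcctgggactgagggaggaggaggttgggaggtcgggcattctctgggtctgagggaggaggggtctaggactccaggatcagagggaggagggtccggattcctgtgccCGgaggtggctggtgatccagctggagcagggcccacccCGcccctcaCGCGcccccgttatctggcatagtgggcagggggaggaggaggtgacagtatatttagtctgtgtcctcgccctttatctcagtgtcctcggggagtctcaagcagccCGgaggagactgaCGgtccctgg
LDB3 (hg19 chr10:88428018-88428317, plus strand): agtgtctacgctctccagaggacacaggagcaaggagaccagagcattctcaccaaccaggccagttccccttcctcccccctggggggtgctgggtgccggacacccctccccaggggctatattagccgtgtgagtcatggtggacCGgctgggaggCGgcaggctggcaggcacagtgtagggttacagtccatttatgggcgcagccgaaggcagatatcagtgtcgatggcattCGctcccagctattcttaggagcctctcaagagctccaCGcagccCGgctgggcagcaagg
ACTA1 (hg19 chr1:229569792-229570091, minus strand): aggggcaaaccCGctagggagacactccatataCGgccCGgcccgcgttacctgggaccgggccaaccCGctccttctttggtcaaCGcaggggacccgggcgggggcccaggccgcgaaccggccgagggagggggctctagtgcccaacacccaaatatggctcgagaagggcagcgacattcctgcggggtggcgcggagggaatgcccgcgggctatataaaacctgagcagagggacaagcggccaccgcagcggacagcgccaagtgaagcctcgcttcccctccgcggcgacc
ACTN2 (hg19 chr1:236849549-236849848, plus strand): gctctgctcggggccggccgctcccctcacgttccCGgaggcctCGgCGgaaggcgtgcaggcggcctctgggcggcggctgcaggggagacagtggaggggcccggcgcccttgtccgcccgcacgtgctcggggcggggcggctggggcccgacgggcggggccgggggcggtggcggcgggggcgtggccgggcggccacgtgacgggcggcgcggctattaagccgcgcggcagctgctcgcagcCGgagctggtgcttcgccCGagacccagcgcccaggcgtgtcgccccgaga
HAND1 (hg19 chr5:153857738-153858037, minus strand): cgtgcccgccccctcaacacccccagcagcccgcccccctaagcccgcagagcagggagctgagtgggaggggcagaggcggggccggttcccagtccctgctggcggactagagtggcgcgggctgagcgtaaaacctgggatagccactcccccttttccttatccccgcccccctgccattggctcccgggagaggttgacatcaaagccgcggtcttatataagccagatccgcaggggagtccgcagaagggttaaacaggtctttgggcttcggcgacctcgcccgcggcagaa

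All 6 CpGs measured in the TNNI3 window were called higher, at 70.7% to 97.7% in TKO CP and 4.35% to 15.2% in WT CP. The gap narrowed past the start. The CpG 147 bases after the start was at 88.0% in TKO CP and 61.3% in WT CP, and that at 188 bases at 70.3% in TKO CP and 75.8% in WT CP, the only CpG of the 14 that was not above WT. In the LDB3 window 5 of 7 measured CpGs were called, at 57.1% to 87.5% in TKO CP and 3.45% to 16.7% in WT CP, and downstream the WT level climbed to 68.7% at 271 bases, where TKO CP was at 85.9%. The ACTA1 window had 6 measured CpGs of 29, and 5 of them were called. For NKX factors the letters AAGTG were searched, and for T-box factors AGGTGT. Over both strands of these sequences AAGTG occurs 1 time, in ACTA1, and AGGTGT 0 times. In the TNNI3 sequence the letters GATAA, the core bound by GATA factors, occur 2 times on either strand, and in the HAND1 sequence 1 time. The LDB3, ACTA1 and ACTN2 sequences hold 0 matches to GATAA. The letters GATAA occur in 22.7% of the 35116 promoter sequences in the RefSeq table, AAGTG in 43.1% and AGGTGT in 11.4%. Such a match is a description of the letters only.

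**Figure D4:**
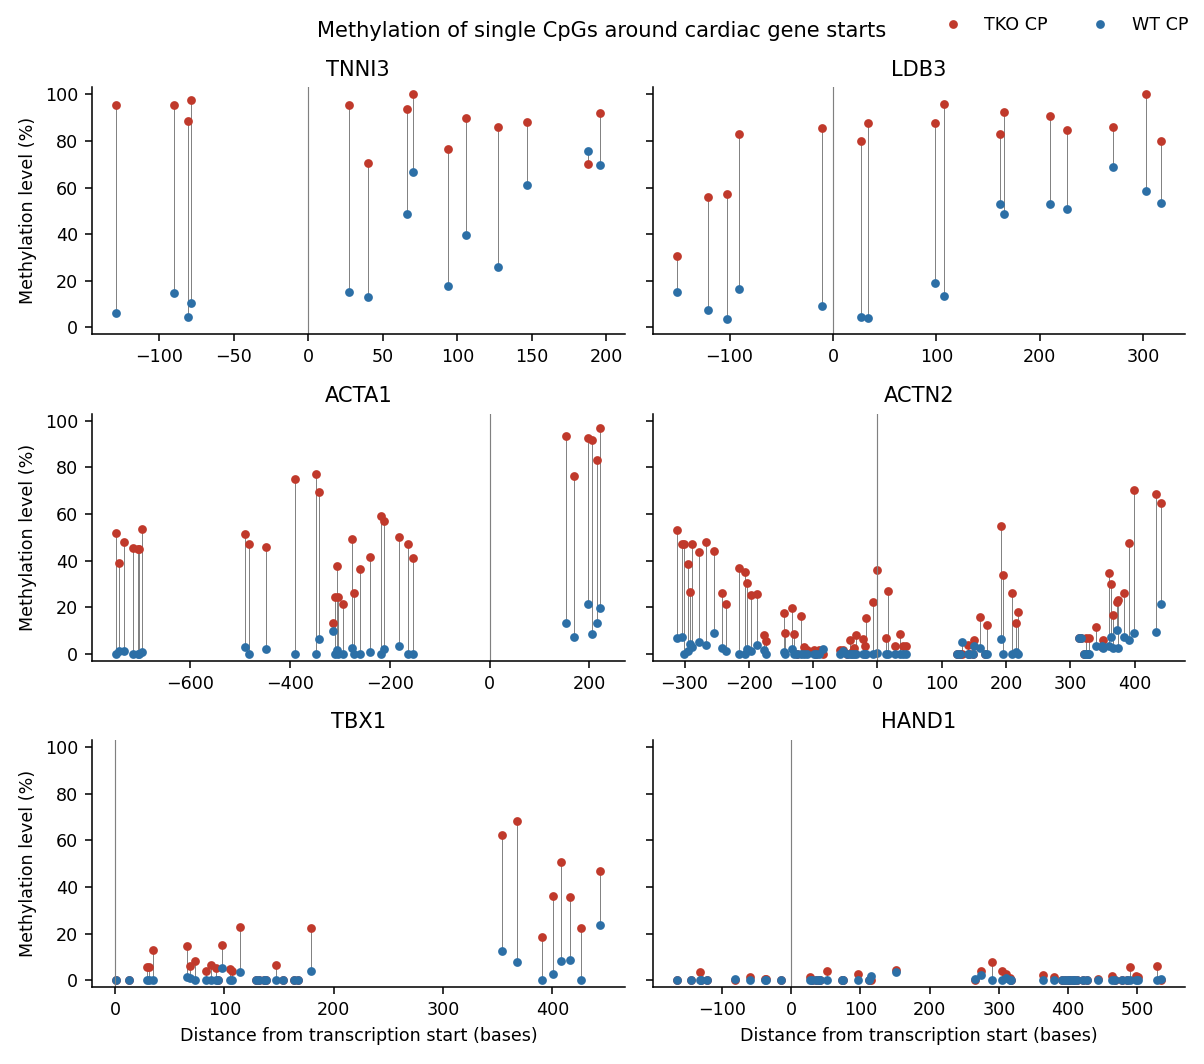
Methylation level (percent) of single CpGs in TKO CP and WT CP by distance (bases) from the start of 6 cardiac genes; grey lines join the same CpG. At TNNI3 and LDB3 the libraries are far apart near the start and approach each other further into the gene. At ACTA1 TKO CP is above WT CP at all 33 CpGs measured, of which 6 lie in the promoter window. The libraries are apart at ACTN2 mostly on either side of the start and at TBX1 from 354 bases after it. At HAND1 no CpG exceeds 7.89% in TKO CP or 3.70% in WT CP.

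The other sarcomere genes differed less. ACTN2, the muscle alpha-actinin that cross-links actin at the Z-disc, was at 20.4% in TKO CP (19.6 to 21.3) and 1.95% in WT CP (1.69 to 2.26), with 21 of 82 CpGs called higher. The called CpGs lay from -312 to 441 bases, on both sides of the start, with those at -1 and 17 bases among them, and no bin reached 25 points. ACTC1, cardiac alpha-actin, was at 12.5% in TKO CP (11.1 to 14.1) and 0.510% in WT CP (0.292 to 0.890), with 1 of 27 CpGs called. TPM1, tropomyosin, was at 3.24% in TKO CP and 0.358% in WT CP over the whole region, but the bin centred 812 bases after its start was at 30.6% in TKO CP and 1.30% in WT CP (adjusted p = 3.08e-109, Fisher's exact test). FLNC (filamin C), ACTA2 (smooth muscle actin), MYL3 (ventricular myosin light chain), NEXN (nexilin) and PDLIM5 lay between 0.150% and 3.37% in TKO CP and between 0.0244% and 0.809% in WT CP.

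Promoters of cardiac regulators were mostly low in both libraries. TBX5, a T-box factor of the first heart field, was the highest at 21.1% in TKO CP (18.7 to 23.7) and 8.42% in WT CP (6.83 to 10.3). TKO SC (3.96%), TKO CME (4.36%), WT SC (3.05%) and WT CME (2.88%) were lower than both, and WT CM stood at 17.5%. The TBX5 CpGs measured lie -401 to -110 bases from the start, and the difference of 12.7 points was 4.21 on the plus strand alone and 21.999 on the minus strand alone. TBX1, a T-box factor of the second heart field and pharynx, was at 14.8% in TKO CP (13.3 to 16.4) and 2.02% in WT CP (1.53 to 2.66). HAND2, a basic helix-loop-helix factor of the right ventricle, was at 9.10% in TKO CP and 1.23% in WT CP. IRX4, a homeobox factor of the ventricles, was at 2.93% in TKO CP and 0.495% in WT CP.

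The remaining 11 regulators, TBX20, MEF2A, HAND1, MEIS2, CITED2, GATA6, SRF, FOXC1, NR2F2, HEY2 and TBX18, were at 1.40% or lower in TKO CP and 1.19% or lower in WT CP. HAND1, for example, stood at 1.06% in TKO CP (0.809 to 1.38) and 0.202% in WT CP (0.115 to 0.352) over 50 CpGs, and GATA6 at 0.158% in TKO CP and 0.0642% in WT CP. Mitochondrial cytosine left as C, a measure of incomplete conversion, was 0.139% in TKO CP and 0.219% in WT CP. Correcting for it moved the HAND1 difference to 0.919 points, against 0.855 uncorrected, and that of GATA6 to 0.0193 points, against 0.0939 uncorrected.

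A higher bin overlapped 2 of the 15 regulator promoters (13.3%), against 9.24% of all placed promoters. Within 10 kb outside the promoters of the regulators, 28 of 88 bins (31.8%) were higher in TKO CP, against 14.97% of the 15983 such bins of all placed genes. By gene, 8 of the 14 regulators with such a bin had one that was higher, against 28.3% of 5330 placed genes. Other lists stood as high or higher by gene, with 8 of 12 neural, 4 of 6 early mesoderm, 3 of 4 secreted signal and 4 of 4 endoderm genes, and by bin 9 of 25 (36%) were higher around pluripotency genes, so these shares are not particular to the regulators. Bins share their neighbourhood, and 10 of the 28 lay at TBX1. At TBX1 the called bin that overlaps the promoter region, centred -726 bases from the start, was at 91.1% in TKO CP and 2.05% in WT CP. Its 18 CpGs lie upstream of the region. The bin centred 9274 bases after the start, over 74 CpGs, was at 90.4% in TKO CP and 0.797% in WT CP. A run of 6 adjacent called bins from 19749001 to 19755000 on chromosome 22, which begins 4775 bases after this start, stood at 78.0% in TKO CP and 3.55% in WT CP.

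IRX4 followed with 6 higher bins in its surroundings and 1 at its promoter, the bin centred 559 bases after the start at 74.5% in TKO CP and 4.22% in WT CP. The bins centred 8559 and 9559 bases after it were at 93.8% and 90.9% in TKO CP, against 3.48% and 1.89% in WT CP. At NR2F2, a nuclear receptor of atrial and venous identity whose promoter was at 1.24% in TKO CP and 1.19% in WT CP, the bin 1706 bases after the start was at 88.9% in TKO CP and 7.23% in WT CP. FOXC1, a forkhead factor of heart and vessel progenitors, had 3 higher bins, with that centred 10350 bases after the start at 94.1% in TKO CP and 3.32% in WT CP. At TBX5 the bin 7317 bases after the start was at 64.8% in TKO CP and 3.13% in WT CP. TBX20 (67.4% in TKO CP and 4.39% in WT CP, 5211 bases after the start), HAND2 (42.3% in TKO CP and 10.7% in WT CP, 5880 bases after) and GATA6 (27.5% in TKO CP and 1.08% in WT CP, 2950 bases after) had 1 or more each, and none of these regulators had a lower bin.

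Among ion channel genes, promoter regions were low apart from that of KCNA5, an atrial potassium channel. It was at 20.7% in TKO CP (19.7 to 21.8) and 2.65% in WT CP (2.28 to 3.08), with 12 of 43 CpGs called but no bin. The KCNA5 CpGs measured lie 164 to 536 bases after the start, and 0 of them fall in its RefSeq promoter window. The level of KCNA5 thus describes DNA past the start, and the window itself was not measured. KCND3, the channel of the transient outward potassium current, had the 1 promoter with higher bins: those centred -1210 and 790 bases from the start were at 67.6% and 35.0% in TKO CP, against 2.14% and 1.53% in WT CP, while the region around the start was at 2.17% in TKO CP and 0.579% in WT CP. The pacemaker channels HCN4 (4.06% in TKO CP and 0.442% in WT CP) and HCN2 (3.96% in TKO CP and 0.859% in WT CP), and KCNJ5 (3.48% in TKO CP and 0.143% in WT CP), were the next. KCNJ2, KCNK3, CACNA1C, RYR2, CAMK2D, CACNB2 and KCNH2 were at 1.17% or lower in TKO CP and 0.699% or lower in WT CP. RYR2, the calcium release channel, stood at 0.386% in TKO CP (0.267 to 0.557) and 0.153% in WT CP (0.0909 to 0.256).

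DNA past the start of KCNH2, the channel of the rapid delayed rectifier current, differed by up to 87.8 points, while its promoter was at 0.112% in TKO CP and 0.155% in WT CP. The bin centred 7909 bases after its placed start was at 95.5% of 221 reads in TKO CP and 7.67% of 365 reads in WT CP (adjusted p = 1.75e-111, Fisher's exact test). TKO SC stood at 92.4% and TKO CME at 95.3%, against 89.1% in WT SC, 78.3% in WT CME and 25.2% in WT CM. The next bin towards the start was at 90.3% in TKO CP and 29.4% in WT CP. The 4 placed promoters of secreted signals, WNT2, PDGFA, BMP4 and WNT5A, were at 1.64% or lower in TKO CP and 0.791% or lower in WT CP, and WNT5A was slightly lower in TKO CP (0.210% in TKO CP and 0.791% in WT CP). Near them, WNT5A had bins at 89.3% in TKO CP and 3.89% in WT CP (3834 bases after the start) and at 71.8% in TKO CP and 1.17% in WT CP (-2166 bases), and BMP4 a bin at 52.7% in TKO CP and 0.499% in WT CP (2268 bases after).

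The stage course of the cardiac bins took different forms. Whether the genotypes differed more at CP than at an earlier stage was tested per bin with a z test on the reads of 4 libraries, at the same adjusted p and size. Of 87882 bins, 5053 (5.75%) had a larger and 95 (0.108%) a smaller difference at CP than at SC. Set against CME, 5156 of 89393 bins (5.77%) had a larger and 56 (0.0626%) a smaller difference. Mitochondrial cytosine was left as C in 0.141% of reads in TKO SC and 1.46% in WT SC. The stage comparison was not repeated with a correction for it, so its effect there was not tested. The 4 cardiac lists had 52 higher bins at 19 genes, in promoters and surroundings together. Of the 51 that could be tested, 19 at 12 genes had a larger difference at CP and none a smaller one. As these bins were chosen for their difference at CP, this share is a description. Short of 25 points, the difference at the BMP4 bin 2268 bases after the start changed by -20.5 points from SC to CP. TKO stood there at 74.2% in SC and 52.7% in CP, and WT at 1.49% and 0.499%. In 7 of the 19, at TNNI3, LDB3, TBX1 and KCNH2, the WT level was lower at CP than at SC by 25 points or more. In 7 others, at ACTA1, TBX5, NR2F2, WNT5A and IRX4, the TKO level was higher at CP than at SC by that much.

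LDB3, the TNNI3 bins centred -1400, -400 and 600 bases from the start and the KCNH2 bins at 7909 and 6909 bases show the first form. In it, TKO stayed near its stem cell level and WT did not. The bin at -5726 bases from TBX1 is another, at 86.1% in TKO SC and 88.5% in TKO CP, against 84.2% in WT SC and 35.9% in WT CP. The TNNI3 bin at 1600 bases already differed at SC, with 83.2% in TKO SC and 32.3% in WT SC. At the KCNH2 bin at 3909 bases TKO stood at 41.9% in SC and 43.9% in CP, and WT at 14.4% and 15.3%. The bins near TBX5, NR2F2, IRX4 and WNT5A show the second form. At TBX5 (7317 bases after the start) the TKO level was 17.2% in SC, 23.01% in CME and 64.8% in CP, while WT stayed between 2.84% and 9.97%. At NR2F2 (9706 bases after) the TKO level was 3.47% in SC, 3.05% in CME and 65.8% in CP, while WT stayed between 2.04% and 9.53%. At IRX4 (9559 bases after) it was 37.1%, 37.9% and 90.9% over the same stages, while WT stayed between 1.89% and 3.51%. Most bins past the starts of TBX1, IRX4 and ACTA1 differed about as much at SC as at CP: in the TBX1 bin at 9274 bases TKO stood at 88.2% at SC and 90.4% at CP, and WT at 1.68% and 0.797%. In all, 31 of the 52 bins already differed by 25 points or more at SC.

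**Figure D5:**
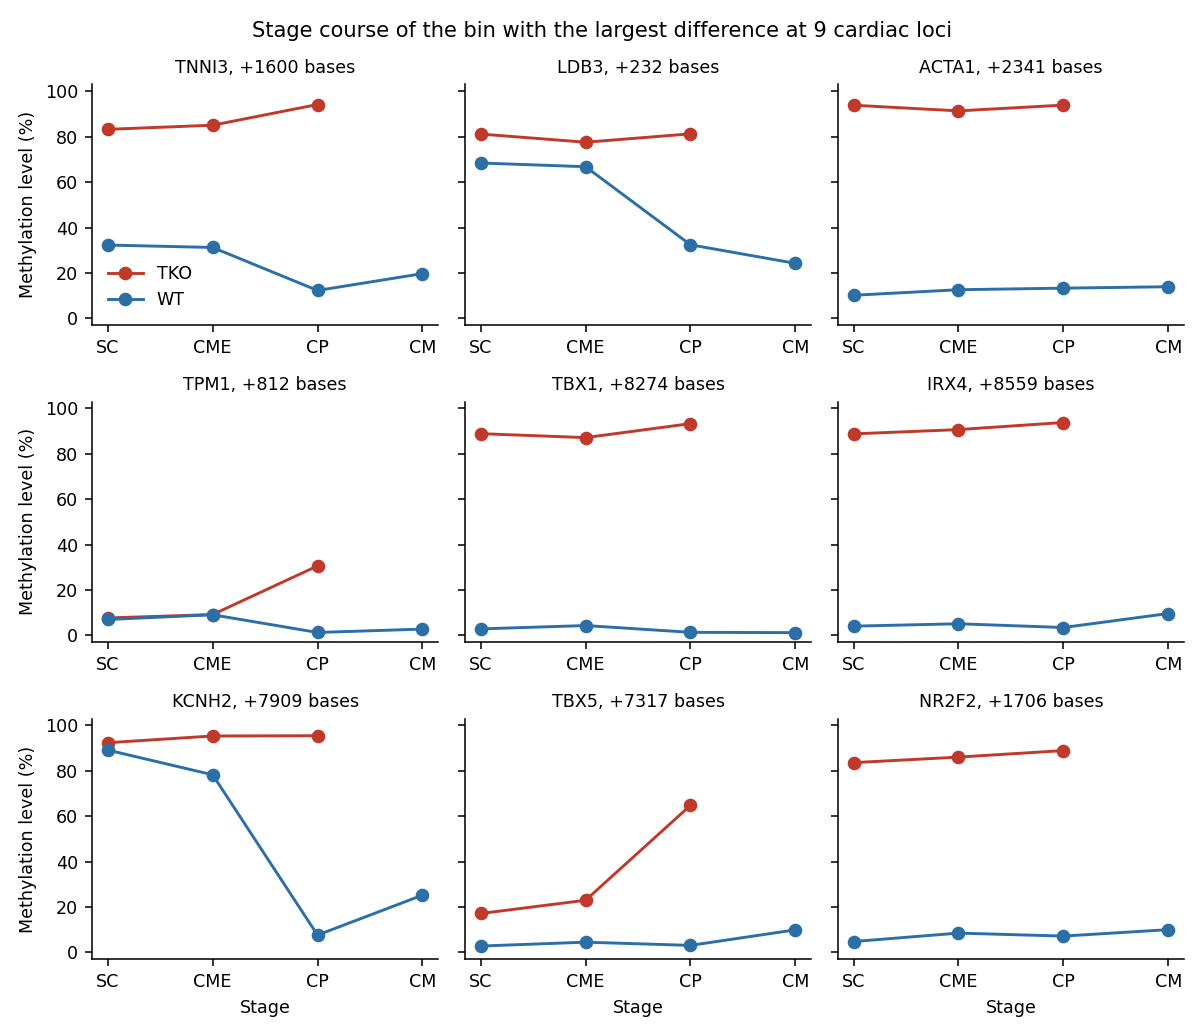
Methylation level (percent) by stage (SC, CME, CP and, for WT, CM) in TKO and WT libraries for the called bin with the largest CP difference at 9 cardiac genes; titles give the distance of the bin's centre from the start. At LDB3 and KCNH2 the WT line drops between CME and CP and the TKO line does not, at TPM1 and TBX5 the TKO line climbs to 30.6% and 64.8% at CP, and at TBX1, IRX4, ACTA1 and NR2F2 the lines are apart from SC on.

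Genes of other lineages were read in the same way. Of 5 placed endoderm promoters 3 overlapped a higher bin, against 9.24% of all placed promoters. Around them 17 of 29 bins (58.6%) were higher, against 14.97% around all placed genes. The 14.97% is again not matched for the level in WT CP. Of the 17 bins, 9 lay at ONECUT1. ONECUT1, a liver and pancreas factor, lay in the longest run of higher bins of the genome, 9 bins and 235 CpGs from 53075001 to 53084000 on chromosome 15. The run stood at 47.5% in TKO CP and 2.19% in WT CP, and the earlier TKO libraries were lower (TKO SC 14.2%, TKO CME 18.6%). HNF4A, a liver factor, was at 91.3% in TKO CP (89.1 to 93.2) and 53.3% in WT CP (48.8 to 57.8), against 94.4% in WT SC. HHEX was at 5.17% in TKO CP and 0.366% in WT CP.

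Early mesoderm factors had 2 of 7 promoters with a higher bin, the neural list 1 of 12 (8.33%) and the pluripotency list 1 of 8 (12.5%), against 9.24% of all placed promoters. MESP2 was at 24.0% in TKO CP and 5.27% in WT CP, TBX6 at 14.8% in TKO CP and 2.00% in WT CP, and MIXL1 at 3.40% in TKO CP and 0.261% in WT CP. The neural gene was PAX6, whose bin at -991 bases was at 80.7% in TKO CP and 3.55% in WT CP, and NEUROG1 (11.6% in TKO CP and 1.21% in WT CP) and SOX1 (5.06% in TKO CP and 1.07% in WT CP) followed by size. The pluripotency gene was UTF1, whose bin at -1221 bases was at 83.9% in TKO CP and 10.4% in WT CP. ZFP42, known as REX1, was at 26.2% in TKO CP and 12.6% in WT CP, and DPPA2 was methylated in both, at 81.9% in TKO CP and 73.6% in WT CP.

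The Wnt antagonists WIF1 (23.3% in TKO CP and 1.15% in WT CP), FRZB (18.3% in TKO CP and 1.18% in WT CP) and SFRP5 (6.31% in TKO CP and 0.258% in WT CP) had no called promoter bin among the 4 placed, although their median difference was 11.6 points. The blood and endothelial list had none of 5, with ERG at 14.8% in TKO CP and 1.21% in WT CP, TEK at 42.3% in TKO CP and 32.3% in WT CP and GATA2 at 12.2% in TKO CP and 2.29% in WT CP. Housekeeping genes had none of 14, their largest difference was 1.09 points (CHMP2A, 1.43% in TKO CP and 0.344% in WT CP) and their median 0.0918 points. Around them 3 of 15 bins (20%) at 2 of 6 genes were higher, against 14.97% of bins and 28.3% of genes among all placed genes. These shares too are not matched for the level in WT CP. The bin centred -2930 bases from the start of GAPDH, a glycolytic enzyme, was at 91.0% in TKO CP and 10.3% in WT CP. The 1 placed skeletal muscle gene, MYF5, had 2 measured CpGs and no tested bin at its promoter, which was at 94.6% in TKO CP (88.0 to 97.7) and 50.3% in WT CP (42.3 to 58.4). Both bins tested upstream of it were higher, at 79.8% in TKO CP and 12.98% in WT CP (-9191 bases) and at 79.4% in TKO CP and 1.496% in WT CP (-8191 bases).

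The largest rises were at DNA almost free of methylation in WT CP. The bin with the largest rise, at 43515001 on chromosome X, contains the start of MAOA, monoamine oxidase A, and stood at 97.5% of 120 reads in TKO CP (92.9 to 99.1) and 0 of 176 reads in WT CP, which allows up to 1.70% at 3 reads of the total and up to 2.14% by the Wilson interval. TKO SC was at 25% of 24 reads and TKO CME at 16.2% of 80. The other 9 began at 93956001 on chromosome 9, 138277001 on X, 86548001 on 16, 21649001 on 13, 16650001 on 17, 133995001 on 11, 8966001 on 4, 149674001 on 1 and 50980001 on 19, with 95.2% to 99.0% in TKO CP and 0.193% to 2.58% in WT CP. Of these, the bin on chromosome 19 lay 237 bases from the start of EMC10. The other long runs were 7 bins from 1465001 on chromosome 19 (79.5% in TKO CP and 19.3% in WT CP), 6 from 134597001 on chromosome 10 (93.4% in TKO CP and 10.2% in WT CP) and 6 from 67195001 on chromosome 16 (87.9% in TKO CP and 4.41% in WT CP). No placed start lay inside the run on chromosome 16. The nearest placed start, that of NOL3, was 3441 bases away, and genes that were not placed could lie closer.

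Lower bins were few, and 9 of the 42 were on chromosome 19, which held 7316 of the 91606 bins. The bin with the largest fall, at 47930001 on chromosome X beside the start of the zinc finger gene ZNF630, was at 0.767% of 391 reads in TKO CP (0.261 to 2.23) and 86.5% of 377 reads in WT CP (82.7 to 89.6). It was also low in TKO SC (1.09%) and TKO CME (1.36%), and high in WT SC (73.6%), WT CME (93.1%) and WT CM (90.1%). The 4 CpGs measured in its promoter window were all called lower, as the capitals mark here.
ZNF630 (hg19 chrX:47930958-47931257, minus strand): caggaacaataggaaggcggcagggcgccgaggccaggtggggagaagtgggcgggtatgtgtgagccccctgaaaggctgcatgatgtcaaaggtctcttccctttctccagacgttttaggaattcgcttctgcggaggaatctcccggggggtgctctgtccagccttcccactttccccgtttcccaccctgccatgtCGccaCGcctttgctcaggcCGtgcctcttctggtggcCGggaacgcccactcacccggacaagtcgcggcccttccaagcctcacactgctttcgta

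The other 9 falls began at 88124001 on chromosome 2, 28725001 on 6, 4681001 on 7, 143344001 on X, 58287001 on 6, 238648001 on 1, 114428001 on 13, 11849001 on 19 and 15947001 on 19, with 0% to 38.0% in TKO CP and 52.2% to 89.8% in WT CP. The 0% is 0 of 84 reads, which allows up to 3.57% at 3 reads of the total and up to 4.37% by the Wilson interval. Besides ZNF630, the placed promoters that overlap a lower bin were ZNF582 (0.465% in TKO CP and 34.9% in WT CP), ZNF583 (0.346% in TKO CP and 35.2% in WT CP), ZNF597 and NAA60, which share their 15 CpGs (0.887% in TKO CP and 26.2% in WT CP), TWIST2, a mesenchymal basic helix-loop-helix factor (47.7% in TKO CP and 89.5% in WT CP), and PNN, whose region was at 3.66% in TKO CP and 2.70% in WT CP. ZNF582 and ZNF583 were at 0.216% and 0.661% in TKO SC, against 31.8% and 30.6% in WT SC.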

How the data were processed

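Methylation was read from 7 deposited libraries, of which TKO CP and WT CP were compared. Alignment and methylation calling were done at a core facility, per the labels' protocols, on hg19, per the submitters' processing notes. Which aligner and caller were used is not given in the sources used here. Per the file headers, the authors' files give a coverage for every CpG cytosine and strand, which is a raw count of reads as far as the values show, and the percent of reads with C and with T. The lowest deposited coverage count was 10, so that cytosines read less often are missing. Coverage times percent gave whole reads in 100% of lines, within the rounding of the percentages.

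C and T reads of both strands were summed per CpG, and level = C/(C+T). A read spanning several CpGs counts at each, and PCR copies are not independent molecules, so intervals and p-values are too narrow. Bins of 1000 bases needed 5 CpGs. Fisher's exact test was checked on simulated reads. A z test compared genotype differences between stages. Alternatives were coverage minimums, CpGs per bin, bin sizes, call sizes, weights, strands, autosomes and a correction for mitochondrial C.

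No annotation of hg19 was used. RefSeq promoter windows of 300 bases (GRCh38.p14) were placed by matching their CpG positions to those the files list, on the gene's chromosome, with matched CpGs minus 2 times the unexplained ones of 6 or more and a lead of 4 over the next place. Of 15860 promoters 8285 were placed so, against 4 when searched on another chromosome, and 7 out of order were dropped. Then 985 of 4470 were placed between placed neighbours (score 5, lead 3), against 14 in a wrong interval. Of 8255 neighbouring pairs, 8079 kept their spacing within 1000 bases. Of 243 listed genes 159 had a sequence and 98 were placed. Python 3.11.15, numpy 2.4.6, scipy 1.17.1, statsmodels 0.14.6 and numba 0.67.0 were used.

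The members, lists and tests were chosen with earlier results of these data known. Bins named are the 10 largest rises and falls and the 5 longest runs; genes are those of the cardiac lists with up to 10 per list by difference, NKX2-5, GATA4, TBX5, HAND1, HAND2, ISL1, MYH6, MYH7, TNNT2, ACTC1, NPPA and RYR2, and up to 3 of each other list. Stage courses, promoters that overlap a lower bin and the sequences shown were chosen after their values were seen.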

Additional observations from a re-analysis of the deposited data

Results flagged for a closer look

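The results here stand out because the TKO minus WT difference changed by 25 points or more between SC and CP (z test on the reads of 4 libraries, adjusted p of 1.32e-06 or lower in each); values are the CP difference minus the SC difference, in points. No explanation was weighed, and with 1 library per group the test compares libraries.

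At contractile genes the difference was larger at CP in the TNNI3 bins centred -1400, -400, 600 and 1600 bases from the start, by 44.8, 67.4, 35.7 and 30.9 points. It was larger by 35.5 points at LDB3, by 27.2 points at ACTA1 and by 28.6 points at TPM1. At channel genes it was larger by 84.6 and 54.6 points in the KCNH2 bins 7909 and 6909 bases after the start, and by 34.6 points at HCN2. Around regulators it was larger by 47.3 and 26.0 points at TBX5, by 33.3 and 58.7 points at NR2F2, by 57.4 points at IRX4, by 51.5 points at TBX1 and by 26.8 points at GATA6. Near the signal gene WNT5A it was larger by 38.5 and 46.1 points.

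Promoter bins of other lineages were larger by 33.4, 29.9 and 36.5 points at ONECUT1, 43.7 points at HNF4A, 27.3 points at MESP2 and 29.7 points at UTF1. Against CME in place of SC, the ACTA1 and MESP2 bins and the WNT5A bin 3834 bases after the start did not reach 25 points, and the others did.

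Among the largest rises, the difference was larger at CP by 76.0 points at 138277001 on chromosome X, 38.5 points at 86548001 on 16 and 26.8 points at 21649001 on 13. Among the largest falls the change was -48.0 points at 28725001 on chromosome 6, -35.1 points at 58287001 on 6, -30.8 points at 238648001 on 1 and -34.3 points at 15947001 on 19, where the fall deepened, and 34.6 points at 114428001 on 13, where it shrank. Of these, the bin on chromosome 6 at 28725001 stood at 25.7% in TKO CP and 81.9% in WT CP, against 14.5% in TKO SC and 22.6% in WT SC.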

How the results depend on the processing

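No setting turned a direction, and higher bins outnumbered lower ones in each. Counts moved with what was tested. Bins lower in TKO CP numbered 127 with 3 CpGs per bin and 27 on the minus strand alone. Bins higher and lower numbered 5670 and 22 with 10 CpGs per bin, 7035 and 14 at 40 points, and 35195 and 3262 by adjusted p alone; 7207 were higher on the plus strand alone. CpGs lower numbered 825 at 40 points and 5244 by adjusted p alone. The mean difference was 9.25 points with each read weighted equally, 7.53 at 20 reads, 7.59 at 30 reads and 7.56 on autosomes. Bins with a larger and smaller difference at CP than at SC numbered 1699 and 12 at 40 points, and 56 were smaller against CME. The cause of these moves was not tested, apart from the fewer or more bins that each setting tests or calls by construction.

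The count of cardiac promoters with a higher bin lay between 6 and 8: FLNC joined with 3 CpGs per bin and ACTN2 on the minus strand, TNNI3 dropped out with 10 CpGs per bin and TPM1 at 40 points. Over 16 named promoters and 80 alternatives, none changed sign, 21 moved beyond the counting interval and the largest move was 12.2 points. The differences of TBX5 (4.21 on the plus and 21.999 on the minus strand, against 12.7), IRX4 (1.16 and 4.03, against 2.43, and 3.96 as a mean of CpG levels) and KCND3 (3.31 as that mean, against 1.59) moved by over 1.5 times, and those of GATA6 and RYR2 did so within their intervals. No paired analysis was possible because each group is 1 library, and for the same reason no replicate could be left out. Depth limits single CpGs most: with 10 reads a level moves in steps of 10 points.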

Other observations

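Beyond the listed genes, the placed promoters with the largest rises were almost fully methylated in TKO CP and almost unmethylated in WT CP. They were picked by their values, so no test is given. SCIN, which encodes the actin-severing protein scinderin, was at 95.5% in TKO CP and 0.760% in WT CP over 19 CpGs, each of which was called higher. CLDN11, a tight-junction claudin, was at 94.3% in TKO CP and 1.37% in WT CP, and DRC1, a part of the ciliary dynein regulatory complex, at 93.4% in TKO CP and 0.446% in WT CP. FAM43A was at 94.7% in TKO CP and 2.18% in WT CP, S100A6, a calcium-binding protein, at 95.4% in TKO CP and 3.33% in WT CP, and G0S2, an inhibitor of triglyceride lipolysis, at 92.3% in TKO CP and 0.660% in WT CP.

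These promoters differed in when the TKO libraries were high. CLDN11, FAM43A and S100A6 were already at 88.9%, 92.6% and 92.0% in TKO SC. Lower values were found for SCIN (TKO SC 40.5%, TKO CME 48.6%), DRC1 (TKO SC 26.2%, TKO CME 29.1%) and MAOA (TKO SC 19.5%, TKO CME 22.2%), the last of which was at 92.2% in TKO CP over its promoter region. In WT SC, WT CME and WT CM these 6 promoters lay between 0.379% and 11.8%.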
